A study of Mus musculus with 14 samples.

Results

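Tfrc, the transferrin receptor through which most cells take up iron, is described here with 9 other genes that move, store, release or sense iron: Fth1, Ftl1, Slc40a1, Slc11a2, Ireb2, Aco1, Ncoa4, Steap3 and Slc39a14. They are 10 of the 24411 gene symbols in the deposited count tables and were picked by name, and all 10 were found. Tfrc was picked because its reads were higher after laparotomy in wild-type hosts, so that contrast is given below as values without a test. MC-38 is a mouse line labelled as cancer cells and known as a colon cancer model; the labels give WT as the genotype of the MC-38 cells in every library, and only the hosts differ. Cells carrying green fluorescent protein were sorted from lung tumours on day 30, with 2 libraries a group: KO hosts with laparotomy on days 0 and 10, KO hosts without surgery (KO control), WT hosts with the same laparotomies, and WT hosts without surgery (WT control). KO hosts lack PAD4, the product of Padi4, an enzyme that citrullinates histones when neutrophils release extracellular traps (NETs), and the labels do not say how the allele was made. In culture, 3 libraries came from MC-38 cells given NET chromatin prepared from neutrophils, and 3 from cells grown without it (control culture); the amount and duration are not given in the labels. Whether libraries of 1 group stem from different cultures or animals is not in the labels; the p-values below therefore speak of the spread among these libraries, and that spread may be technical.

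Cells take up iron as a complex of transferrin and the receptor TFRC; in the endosome STEAP3 reduces the ferric iron and SLC11A2 (DMT1) carries it into the cytosol, while SLC39A14 (ZIP14) imports iron that is not bound to transferrin. Surplus iron is stored in ferritin, a shell of heavy (Fth1) and light (Ftl1) chains; NCOA4 delivers ferritin to lysosomes for breakdown, and SLC40A1 (ferroportin) is the exporter. The iron regulatory proteins, IRP1 from Aco1 and IRP2 from Ireb2, bind hairpins called iron responsive elements when iron is scarce: bound in a 5′ untranslated region (UTR) they hold back translation, and bound in the 3′ UTR of Tfrc they protect the mRNA from decay.

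The hairpins that mark these transcripts are shown because they set the known division between Tfrc and the storage and export genes. UTRs of GENCODE vM21 transcripts were searched on the transcript strand for the loop CAGTGN closed by 5 base pairs (A with T, G with C, or G with T). A C just before the 5′ arm of that stem was also required. Each match is shown in a window of 27 bases, which adds 5 bases on either side of the pattern. The 6 bases of the loop are in capitals, sequences run 5′ to 3′, and coordinates are those of the window in GRCm38. In 5′ UTRs the search matched Fth1 at chr19:9982733-9982759 on the plus strand, Ftl1 at chr7:45459780-45459806 on the minus strand and Slc40a1 at chr1:45925466-45925492 on the minus strand. In the 3′ UTR of Tfrc it matched 4 windows on the plus strand, at chr16:32631220-32631246, chr16:32631599-32631625, chr16:32631664-32631690 and chr16:32631711-32631737.
Fth1 5′ UTR: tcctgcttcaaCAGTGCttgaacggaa
Ftl1 5′ UTR: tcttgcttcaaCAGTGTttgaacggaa
Slc40a1 5′ UTR: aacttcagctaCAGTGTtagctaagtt
Tfrc 3′ UTR, site 1: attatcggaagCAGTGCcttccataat
Tfrc 3′ UTR, site 2: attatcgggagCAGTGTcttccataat
Tfrc 3′ UTR, site 3: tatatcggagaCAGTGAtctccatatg
Tfrc 3′ UTR, site 4: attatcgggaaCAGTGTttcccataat
The same pattern was found in the 5′ UTR of 31 of 20916 genes (0.148%) and in the 3′ UTR of 129 of 21045 genes (0.613%). A match describes the letters and was not measured as a bound site, and the 6 members with no match lack only this form of the pattern in their annotated UTRs.

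The 14 libraries held 6.39 to 20.6 M gene reads in culture and 10.8 to 31.3 M in tumours. Unmapped reads were 8.45 to 11.5% of all reads in NET cultures, against 5.94 to 7.04% in control cultures. Reads outside annotated genes were 21.8 to 24.0% in NET cultures, against 17.6 to 18.2% in control cultures. NET replicate 2 had the highest share of both and the fewest gene reads. The part of these shares in the culture differences below was not tested. Padi4 cannot check the host labels, since MC-38 cells carry their own copy: it had 3.97 and 2.83 CPM in KO laparotomy libraries, 5.47 and 2.08 CPM in KO control, 30.7 and 30.3 CPM in WT laparotomy and 3.20 and 7.49 CPM in WT control. Here and below CPM is the gene's reads per 1 M gene reads, with library sizes scaled by TMM factors, which even out differences in composition between libraries. The 10 epithelial and colon markers summed to 2.01 to 34.8 CPM in tumours, where Krt19 had the most reads, 349 in WT control replicate 2, and to 0.990 to 1.85 CPM in culture, where each had 0 to 9 reads a library. Sorted tumour cells also held reads of genes that mark host cells. The 12 macrophage markers summed to 311 to 468 CPM in KO laparotomy, 119 to 314 in KO control, 110.1 to 121 in WT laparotomy and 348 to 1421 in WT control, where replicate 2 was the highest. The 9 markers of red blood cells and their precursors (erythroid markers) summed to 3.09 to 10.2 CPM in tumours and 15.6 to 23.8 CPM in culture. Among them Epor had 38 to 396 reads and Alas2 5 to 58 reads a library. The haemoglobin genes Hba-a1, Hba-a2, Hbb-bs and Hbb-bt had no reads in any library. Reads that map to several places were not counted, so these zeros cannot show whether red blood cells were present. In such bulk samples fewer cells of a type and less RNA per cell cannot be told apart.

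Across the 6 groups, with 1 set of TMM factors over all 14 libraries, the level of Tfrc was highest in NET cultures at 593 to 797 CPM and in WT laparotomy tumours at 652 and 654 CPM, and these ranges overlapped. Control cultures followed at 399 to 410.2 CPM, overlapping KO laparotomy tumours at 334 and 407 CPM. KO control tumours, at 254 and 330.4 CPM, and WT control tumours, at 245 and 268 CPM, were lowest and overlapped each other. Slc40a1 had few reads in all libraries but 1: 0 to 2 reads in each culture library, 28 and 7 reads in KO laparotomy, 8 and 20 in KO control, 14 and 26 in WT laparotomy and 5 and 163 in WT control. Its highest library, WT control replicate 2, was also the one with the highest macrophage marker sum; the part of those cells in the value was not tested.

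**Figure D1:**
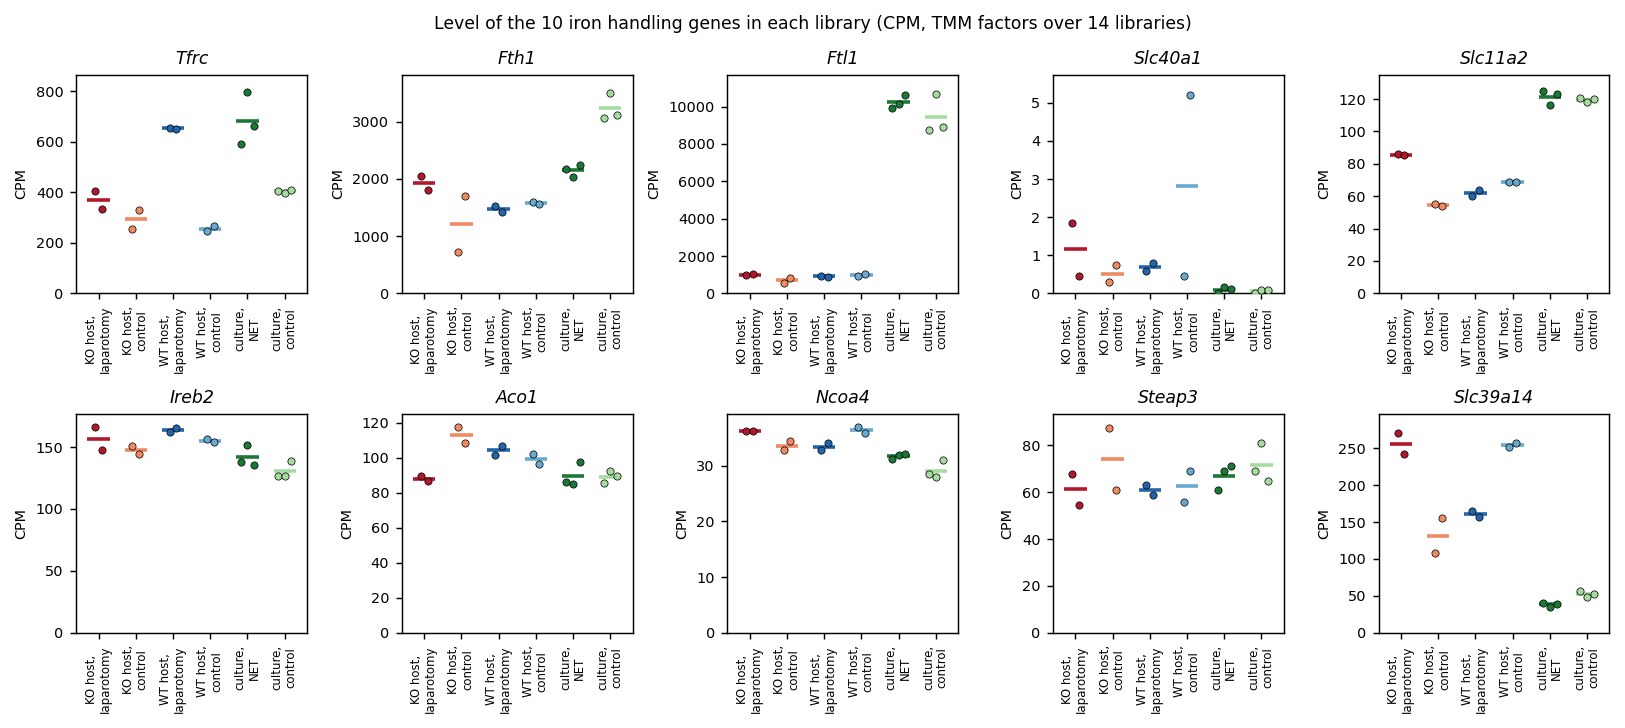
Level of each of the 10 genes in CPM (linear axes starting at 0, TMM factors over all 14 libraries), 1 point per library and a bar at the group mean, for 4 tumour groups of 2 and 2 culture groups of 3. Tfrc stands at 593 to 797 CPM in NET cultures and at 652 and 654 CPM in WT laparotomy tumours, and Ftl1 at no more than 1055 CPM in any tumour library.

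The culture comparison asks whether the iron genes of MC-38 cells differ with NET chromatin outside a host, in libraries that played no part in the choice of Tfrc. Tfrc rose and Fth1 and Slc39a14 fell with NET chromatin, while the other 6 tested genes did not pass. Counts were fitted with edgeR's quasi-likelihood test over 11753 genes, and a gene was called at a Benjamini-Hochberg adjusted p under 0.05 over all of them. By that rule 1 of the 9 tested members was higher and 2 were lower, beside 54.1% of all genes called, 26.3% higher and 27.8% lower, so the members were called no more often than genes at large. The same 3 members were the ones whose libraries did not overlap, beside 60.1% of all genes. With plain library totals in place of TMM factors the median of all genes shifted to -0.16 on the log2 scale and 1640 of 6417 calls were higher, against 3093 of 6363 calls with TMM factors. Slc40a1 had too few reads in culture to be tested.

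Tfrc, on chromosome 16 (32608920 to 32632794), had 579.6, 790.1 and 621 CPM in NET cultures, against 398, 387 and 402 CPM in control cultures. Every NET library lay above every control library, and replicate 2 was the highest of the NET libraries. The fold change, as log2 of NET over control, was 0.74 ± 0.09 (SE, n = 3 a group; edgeR adjusted p = 4.26e-06). With library totals it was 0.58, which also passed.

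The other uptake genes did not share that pattern. Slc39a14 (chromosome 14, 70303469 to 70351425), the importer of iron outside transferrin, had 39.8, 34.7 and 36.6 CPM in NET cultures, against 54.8, 47.4 and 52.0 CPM in control cultures. The groups did not overlap, with NET lower, and the log2 fold change was -0.47 ± 0.09 (edgeR adjusted p = 0.000219). Slc11a2, the carrier of iron out of the endosome, had 122, 115 and 116 CPM in NET cultures and 118, 115 and 118 CPM in control cultures. Steap3, the endosomal reductase, had 59.5, 68.6 and 66.8 CPM in NET cultures and 67.8, 78.7 and 63.6 CPM in control cultures. Both sets of libraries overlapped, and log2 fold changes were 0.01 ± 0.06 for Slc11a2 (edgeR adjusted p = 0.891) and -0.11 ± 0.09 for Steap3 (edgeR adjusted p = 0.304). With library totals Steap3 stood at -0.27 and passed (edgeR adjusted p = 0.0137).

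Among the storage genes, the heavy chain moved and the light chain did not pass. Fth1 (chromosome 19, 9980598 to 9985098) had 2119, 2022 and 2113 CPM in NET cultures, against 3008, 3399 and 3061 CPM in control cultures. All 3 NET libraries lay below all 3 controls, with a log2 fold change of -0.60 ± 0.07 (edgeR adjusted p = 1.56e-06). Ftl1 (chromosome 7, 45457944 to 45459884) had 9699, 10069.7 and 9996 CPM in NET cultures and 8548, 10342 and 8717 CPM in control cultures. Its libraries overlapped because control replicate 2 was the highest of the 6, and the log2 fold change of 0.11 ± 0.08 did not pass (edgeR adjusted p = 0.241); without that library it was 0.20 and passed (edgeR adjusted p = 0.0355). Ncoa4, the cargo receptor for ferritin breakdown, had 30.5, 31.7 and 30.2 CPM in NET cultures and 28.0, 27.1 and 30.4 CPM in control cultures, overlapping, at a log2 fold change of 0.11 ± 0.09 (edgeR adjusted p = 0.335). Ferritin genes have processed pseudogenes, and reads that map to several places, 8.40 to 9.25% of all reads in culture and 6.14 to 7.25% in tumours, were not counted to a gene, so ferritin levels are uncertain. Ftl1 also shares 464 exonic bases with other annotated genes.

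The mRNAs of both iron regulatory proteins overlapped between the groups. Ireb2 (IRP2) had 135, 151 and 127 CPM in NET cultures and 124, 123 and 136 CPM in control cultures, a log2 fold change of 0.10 ± 0.07 (edgeR adjusted p = 0.270). Aco1 (IRP1) had 84.1, 84.1 and 91.4 CPM in NET cultures and 83.9, 89.5 and 87.8 CPM in control cultures, a log2 fold change of -0.00 ± 0.07 (edgeR adjusted p = 0.969). These are mRNA levels, and RNA binding by the proteins was not measured.

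Macrophage and leukocyte markers moved in the same libraries, at low levels. The 12 macrophage markers summed to 151 to 176 CPM in NET cultures, against 89.6 to 108 CPM in control cultures, with 4 of the 12 at 0 in every library of each group. Most macrophage reads were Cd68, with 1041, 890 and 2622 reads in NET cultures and 834, 1249 and 1029 in control cultures. Adgre1 had 13, 12 and 30 reads in NET cultures and 0 in each control culture. Csf1r, Mrc1 and Lyz2 also had more reads in every NET library than in every control library. Cd14 overlapped, C1qa and C1qc had 0 reads in every culture library, and C1qb, Marco, Cd163 and Siglec1 had 0 to 3 reads in each. The 10 pan-leukocyte markers summed to 17.0 to 18.7 CPM in NET cultures, against 5.68 to 6.32 CPM in control cultures, with none of the 10 at 0 throughout either group, and the 12 neutrophil markers to 21.3 to 23.6 CPM, against 9.26 to 9.54 CPM, with 2 of 12 at 0 throughout NET cultures and 5 throughout control cultures. Their part in the differences of Tfrc, Fth1 and Slc39a14 was not tested.

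**Figure D2:**
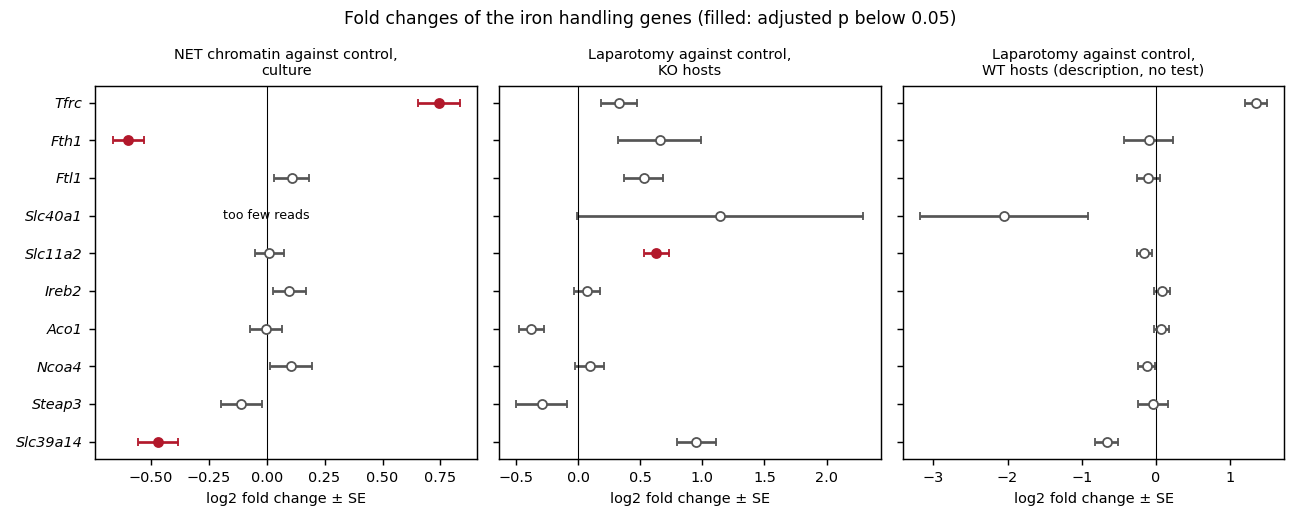
Log2 fold change with its SE for each gene in 3 comparisons, on horizontal axes of different width: NET over control culture (n = 3 a group), laparotomy over control in KO hosts and laparotomy over control in WT hosts (n = 2 a group), the last as a description without a test. Filled points passed an edgeR adjusted p of 0.05: Tfrc at 0.74, Fth1 at -0.60 and Slc39a14 at -0.47 in culture, and Slc11a2 at 0.63 in KO hosts.

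Ratios of reads within a library, which no scaling between libraries can alter, showed the same split inside ferritin. There were 4.58, 4.98 and 4.73 Ftl1 reads for each Fth1 read in NET cultures, against 2.84, 3.04 and 2.85 in control cultures. The means were 4.76 ± 0.20 and 2.91 ± 0.11 (SD, n = 3 each), the groups did not overlap, and an exact two-sided permutation test gave p = 0.1, the smallest that 3 libraries against 3 allow. Tfrc reads per Fth1 read were 0.274, 0.391 and 0.294 in NET cultures, against 0.132, 0.114 and 0.131 in control cultures, likewise with no overlap and an exact permutation p of 0.1. In tumours Ftl1 reads were fewer than Fth1 reads in every library, at 0.468 and 0.582 per Fth1 read in KO laparotomy, 0.803 and 0.471 in KO control, 0.626 and 0.625 in WT laparotomy and 0.582 and 0.675 in WT control. Levels were also divided by the joined length of all annotated exons, 1.34 kb for Ftl1 and 3.47 kb for Fth1. Control cultures held 6512 to 7953 CPM per kb of Ftl1 and 885 to 1009.5 CPM per kb of Fth1. Tumours held 433 to 787 CPM per kb of Ftl1 and 208 to 589 CPM per kb of Fth1. The joined length can exceed that of the transcripts present, so these values cannot rank the chains.

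**Figure D3:**
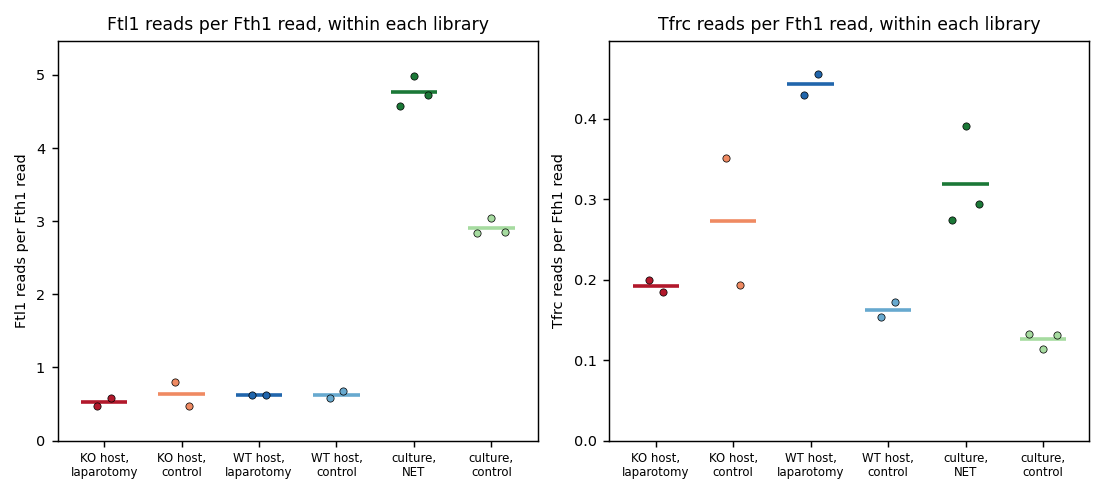
Ftl1 reads per Fth1 read (left) and Tfrc reads per Fth1 read (right) in each library, on linear axes from 0, with a bar at the mean of each of the 6 groups. Ftl1 per Fth1 is 4.58 to 4.98 in NET cultures, 2.84 to 3.04 in control cultures and under 1 in all tumour libraries.

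Beyond the 10 genes, 77 other iron genes were found of 79 listed, grouped by role (Flvcr1 and Flvcr2 were not analysed here). In culture 64 of them were tested: 17 were higher with NET chromatin, 15 were lower and 32 did not pass, beside the 54.1% of all genes called. Their median log2 fold change was -0.04, against 0.00 for all genes. Mitochondrial iron and iron-sulphur cluster genes had 7 higher and 4 lower of 31, uptake genes 2 and 2 of 7, storage and chaperone genes 2 and 0 of 4, export genes 0 and 1 of 1, sensing genes 2 and 0 of 4, haem synthesis 2 and 4 of 8, and haem breakdown and transport 2 and 4 of 9. Cpox, an enzyme of haem synthesis, had the largest positive change of those passing with a mean of at least 5 CPM, at 80.3 ± 5.31 CPM in NET cultures and 51.3 ± 1.37 CPM in control cultures (SD, n = 3 each; log2 fold change 0.65 ± 0.08, edgeR adjusted p = 2.17e-06). Hmox1, the haem oxygenase that frees iron from haem, had 641 ± 58.1 CPM in NET cultures and 451 ± 18.8 CPM in control cultures (log2 fold change 0.51 ± 0.07, edgeR adjusted p = 1.41e-05). Skp1a, a subunit of the ubiquitin ligase that degrades IRP2, had 194 ± 17.6 CPM in NET cultures and 136 ± 5.51 CPM in control cultures (log2 fold change 0.50 ± 0.07, edgeR adjusted p = 1.68e-05). Among genes passing with that mean, Ndor1, a reductase of cytosolic iron-sulphur assembly, fell the most, at -0.65 ± 0.11 on the log2 scale (edgeR adjusted p = 0.000130). Steap1, a relative of Steap3, followed at -0.61 ± 0.09 (edgeR adjusted p = 2.10e-05). Iscu, the scaffold of mitochondrial clusters, stood at -0.59 ± 0.13 (edgeR adjusted p = 0.000975). Genes under that mean fell further, down to -1.18 among haem breakdown and transport genes.

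**Figure D4:**
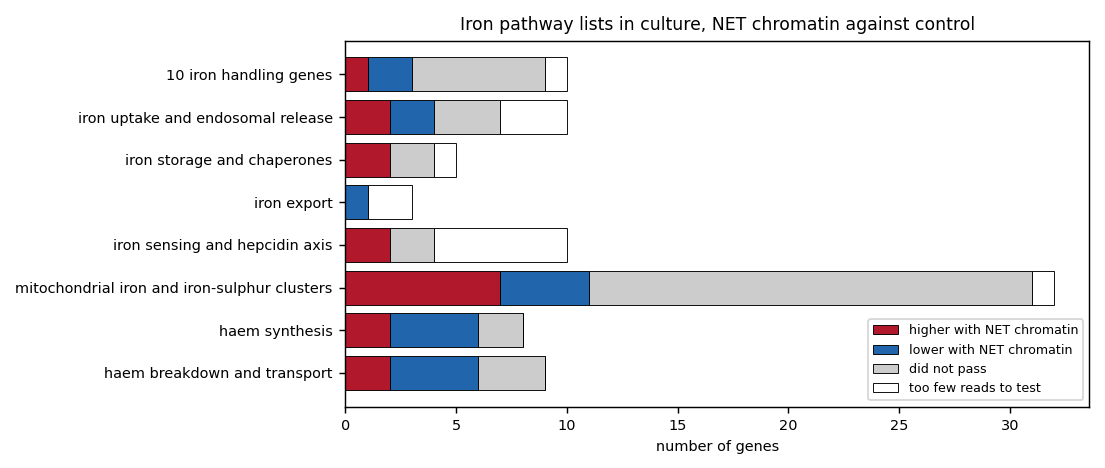
Number of genes of each iron list that were called higher or lower with NET chromatin (edgeR adjusted p under 0.05), did not pass, or had too few reads to test in culture. Of the 10 iron handling genes 1 was higher and 2 were lower, and the longest list, mitochondrial iron and iron-sulphur clusters, had 7 higher and 4 lower of 31 tested.

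Laparotomy in WT hosts is the contrast that led to the choice of Tfrc, and its values are given without a test. Tfrc had 671 and 664 CPM in WT laparotomy tumours, against 249 and 276 CPM in WT control tumours, a log2 fold change of 1.35 ± 0.15 (SE, n = 2 a group) from 1 fit over the 8 tumour libraries in 4 groups. Both laparotomy libraries were far above both control libraries and close to each other. Slc39a14 had 169 and 159.9 CPM in WT laparotomy and 255 and 266 CPM in WT control, at -0.67 ± 0.16. Slc11a2 had 61.5 and 64.8 CPM in WT laparotomy and 69.7 and 71.2 CPM in WT control, at -0.16 ± 0.10. Both of these genes lay lower in both laparotomy libraries.

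Ferritin differed little between these groups. Fth1 had 1561 and 1456 CPM in WT laparotomy and 1620.0 and 1605 CPM in WT control, at -0.10 ± 0.33 on the log2 scale. Ftl1 had 978 and 909.8 CPM in WT laparotomy and 943 and 1083 CPM in WT control, at -0.10 ± 0.16. Tfrc reads per Fth1 read were accordingly 0.430 and 0.456 in WT laparotomy, against 0.153 and 0.172 in WT control. Of the remaining genes, Ireb2 (0.08 ± 0.10) and Aco1 (0.07 ± 0.10) were higher in both laparotomy libraries by less than their SE, Ncoa4 lower in both (-0.13 ± 0.12), and Steap3 (-0.04 ± 0.20) and Slc40a1 (-2.05 ± 1.13) overlapped. Counting libraries only, 3 of the 10 genes were higher and 4 lower without overlap, beside 29.2% of all 14615 genes higher, 28.1% lower and 57.3% in either direction without overlap, and 0.0547% called by edgeR. Several marker sums also differed without overlap between these groups, most of them lower with laparotomy. The 12 macrophage markers summed to 110.1 to 121 CPM in WT laparotomy and 348 to 1421 CPM in WT control, and the 10 pan-leukocyte markers to 80.0 to 106 CPM in WT laparotomy and 129 to 886 CPM in WT control. The 11 lung epithelium markers summed to 16.7 to 26.0 CPM in WT laparotomy and 145 to 829 CPM in WT control, and the 10 endothelial markers to 55.1 to 55.3 CPM in WT laparotomy and 136 to 566 CPM in WT control. The 8 fibroblast markers summed to 3447 to 4770 CPM in WT laparotomy and 4922 to 6142 CPM in WT control. No marker of these lists was at 0 throughout either group. The 10 epithelial and colon markers summed to 3.28 to 5.14 CPM in WT laparotomy and 9.14 to 34.8 CPM in WT control. Of these, 1 was at 0 throughout each group. The 9 erythroid markers were higher instead, at 8.35 to 10.2 CPM in WT laparotomy and 6.30 to 7.95 CPM in WT control. Of these, 4 were at 0 throughout each group. The 12 neutrophil markers overlapped, at 147 to 186 CPM in WT laparotomy and 166 to 829 CPM in WT control, with none at 0 throughout either group. Mmp9 alone had 179 and 142 CPM in WT laparotomy and 111 and 230 CPM in WT control. The other 11 neutrophil markers were lower without overlap, at 7.37 and 5.26 CPM in WT laparotomy and 54.2 and 599 CPM in WT control. The part of all these lists in the values was not tested. The log2 fold change of Tfrc was 1.43 when WT control replicate 2 was left out and that of Slc40a1 was then 0.65.

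Laparotomy in KO hosts compared libraries that the choice of Tfrc did not use, although the spread was estimated over all 8 tumour libraries, WT hosts included. Slc11a2 rose, and none of the other 9 genes passed. That is 1 of 10, beside 0.52% of the 14615 tested genes called, 0.342% higher and 0.178% lower. DESeq2 called 4 of the 10, 3 higher and 1 lower, beside 5.36% of all genes, and the compared groups fitted alone gave 0 calls. Counting libraries only, 6 of the 10 genes were higher and 1 was lower without overlap, beside 21.6% of all genes higher, 20.5% lower and 42.1% in either direction.

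Slc11a2 (chromosome 15, 100387898 to 100425072) had 86.9 and 86.7 CPM in KO laparotomy tumours, against 57.3 and 54.9 CPM in KO control tumours. The KO laparotomy libraries were the highest of the 8 tumour libraries, and the log2 fold change was 0.63 ± 0.10 (SE, n = 2 a group; edgeR adjusted p = 0.0473). The call was lost without WT laparotomy replicate 1 (edgeR adjusted p = 0.135) or 2 (0.152), KO control replicate 1 (0.254) or 2 (0.0823), or KO laparotomy replicate 1 (0.0958) or 2 (0.124), while the fold change stayed between 0.60 and 0.67. Slc11a2 shares 402 exonic bases with Gm5475 on the other strand, and reads of that strand were at most 0.044% of its strand-specific reads in any library.

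Slc39a14 had 274 and 246 CPM in KO laparotomy, against 112 and 157 CPM in KO control. The libraries did not overlap, and the log2 fold change of 0.95 ± 0.16 just missed the threshold (edgeR adjusted p = 0.0559). It passed with DESeq2 (DESeq2 adjusted p = 5.86e-06), without a filter on low counts (edgeR adjusted p = 0.00302), without WT control replicate 1 (0.0424) or 2 (0.0337) and, at 1.22, without KO control replicate 2 (edgeR adjusted p = 0.0263). Tfrc had 412 and 339 CPM in KO laparotomy and 263 and 335 CPM in KO control, with KO laparotomy replicate 2 close to KO control replicate 2. Its log2 fold change was 0.33 ± 0.15 and did not pass (edgeR adjusted p = 0.333). Steap3 had 68.6 and 55.6 CPM in KO laparotomy and 90.5 and 61.5 CPM in KO control, overlapping, at -0.29 ± 0.20 (edgeR adjusted p = 0.539).

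Both ferritin chains were higher in both KO laparotomy libraries without passing. Fth1 had 2069 and 1842 CPM in KO laparotomy, against 747 and 1730.3 CPM in KO control, so KO control replicate 1 lay far below all other tumour libraries. The log2 fold change was 0.66 ± 0.33 (edgeR adjusted p = 0.400), 0.18 without KO control replicate 1, and 1.39 without KO control replicate 2 (edgeR adjusted p = 0.0251). Ftl1 had 969 and 1072 CPM in KO laparotomy, against 600.2 and 814 CPM in KO control, at 0.53 ± 0.16 (edgeR adjusted p = 0.173). Tfrc reads per Fth1 read were 0.199 and 0.184 in KO laparotomy and 0.352 and 0.193 in KO control; an exact permutation test gave p = 0.667, where 2 libraries against 2 cannot go below 0.333. Ncoa4 had 36.6 and 36.7 CPM in KO laparotomy and 34.0 and 34.8 CPM in KO control, at 0.09 ± 0.12 (edgeR adjusted p = 0.756).

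Export and regulators did not pass either. Slc40a1 had 1.88 and 0.472 CPM in KO laparotomy and 0.304 and 0.755 CPM in KO control, overlapping, at 1.14 ± 1.15 (edgeR adjusted p = 0.691). Aco1 had 90.3 and 88.0 CPM in KO laparotomy, the lowest of the 8 tumour libraries, against 122 and 110.0 CPM in KO control, at -0.38 ± 0.10 (edgeR adjusted p = 0.142). Ireb2 had 169 and 149.7 CPM in KO laparotomy and 157 and 146 CPM in KO control, overlapping, at 0.07 ± 0.10 (edgeR adjusted p = 0.785). Macrophage markers summed to 311 to 468 CPM in KO laparotomy and 119 to 314 CPM in KO control, with none of the 12 at 0 throughout either group, and neutrophil markers to 149.8 to 236 CPM in KO laparotomy and 346 to 420 CPM in KO control, with 1 of 12 at 0 throughout each. Most of the neutrophil sum was Mmp9, at 215 and 124 CPM in KO laparotomy and 407 and 252 CPM in KO control; the other 11 markers summed to 21.6 and 26.0 CPM in KO laparotomy and 12.2 and 93.3 CPM in KO control, overlapping. The sums of the 11 lung epithelium markers were 96.3 to 104 CPM in KO laparotomy and 45.0 to 426 CPM in KO control. The 10 pan-leukocyte markers were lower without overlap, at 94.8 to 127 CPM in KO laparotomy and 151 to 178 CPM in KO control. The 10 epithelial and colon markers were higher without overlap, at 15.9 to 20.2 CPM in KO laparotomy and 2.01 to 11.0 CPM in KO control. Of the latter, 2 were at 0 throughout each group, and of the pan-leukocyte markers none was. Their part in the values of the iron genes was not tested.

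Of the 77 other iron genes, 72 were tested in tumours and edgeR called 0 of them for laparotomy in KO hosts, with 13 at an unadjusted p under 0.05, beside 15.7% of all genes, and 10 called by DESeq2, beside 5.36%. The smallest p-values belonged to Slc48a1, a haem transporter, and Blvrb, a biliverdin reductase of haem breakdown. Slc48a1 had 104 and 111 CPM in KO laparotomy, against 38.9 and 60.1 CPM in KO control (log2 fold change 1.11 ± 0.20, edgeR adjusted p = 0.0647). Blvrb had 81.0 and 67.2 CPM in KO laparotomy, against 39.8 and 47.6 CPM in KO control (0.76 ± 0.14, edgeR adjusted p = 0.0663). In both genes the groups did not overlap.

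Set side by side, the laparotomy fold changes in KO and in WT hosts were 0.33 and 1.35 for Tfrc, 0.95 and -0.67 for Slc39a14, 0.63 and -0.16 for Slc11a2, 0.66 and -0.10 for Fth1, and 0.53 and -0.10 for Ftl1 on the log2 scale. The KO minus WT difference of these effects was -1.02 ± 0.21 for Tfrc, 1.62 ± 0.22 for Slc39a14, 0.79 ± 0.14 for Slc11a2, -0.45 ± 0.14 for Aco1 and 0.63 ± 0.22 for Ftl1. It was 0.75 ± 0.47 for Fth1, 0.22 ± 0.16 for Ncoa4, -0.25 ± 0.29 for Steap3, -0.01 ± 0.14 for Ireb2 and 3.19 ± 1.61 for Slc40a1. Leaving out 1 library moved some of these values widely: Fth1 stood at 0.27 without KO control replicate 1 and 1.48 without replicate 2, Steap3 at 0.05 without KO control replicate 1 and -0.51 without replicate 2, and Slc40a1 at 0.50 without WT control replicate 2 and 4.02 without replicate 1. These differences include the contrast that led to the choice of Tfrc and were not tested. In 5 of the 10 genes (Slc39a14, Slc11a2, Fth1, Aco1 and Ncoa4) both laparotomy libraries lay on opposite sides of their controls in KO and WT hosts, beside 14.7% of all genes tested.

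Host PAD4 loss was compared directly in tumours with and without surgery. Without surgery edgeR called 0 of the 9 genes other than Tfrc, beside 0.116% of all genes; 3 had an unadjusted p under 0.05, beside 16.3% of all genes, and DESeq2 called 2, beside 5.68% of all genes. Without overlap 1 of the 9 was higher and 5 were lower, beside 44.4% of all genes in either direction. Slc39a14, at 112 and 157 CPM in KO control and 255 and 266 CPM in WT control, had the largest difference among genes without overlap, a log2 fold change of -0.95 ± 0.16 (KO over WT, SE, n = 2 a group; edgeR adjusted p = 0.0754). Slc11a2, at 57.3 and 54.9 CPM in KO control and 69.7 and 71.2 CPM in WT control, stood at -0.33 ± 0.10 (edgeR adjusted p = 0.198). Ftl1 stood at -0.52 ± 0.16 (edgeR adjusted p = 0.196), Fth1 at -0.38 ± 0.33 (0.616), Aco1 at 0.19 ± 0.10 (0.393) and Slc40a1 at -2.48 ± 1.16 (0.334). Steap3 (0.24 ± 0.20), Ncoa4 (-0.12 ± 0.12) and Ireb2 (-0.07 ± 0.10) had edgeR adjusted p-values of 0.597 to 0.788. Without KO control replicate 2 there were 2 calls, Slc39a14 at -1.22 (edgeR adjusted p = 0.0318) and Fth1 at -1.11 (edgeR adjusted p = 0.0375). Tfrc, whose WT libraries were used to choose it, had 263 and 335 CPM in KO control and 249 and 276 CPM in WT control, overlapping, at 0.19 ± 0.15 with no test.

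With laparotomy edgeR again called 0 of the 9 genes, beside 0.0205% of all genes, with 3 at an unadjusted p under 0.05, beside 13.4% of all genes, and 2 called by DESeq2, beside 4.29% of all genes. Without overlap 4 of the 9 were higher and 1 was lower, beside 52.3% of all genes in either direction. Slc39a14 had 274 and 246 CPM in KO laparotomy and 169 and 159.9 CPM in WT laparotomy, at 0.66 ± 0.16 (edgeR adjusted p = 0.157). Slc11a2 had 86.9 and 86.7 CPM in KO laparotomy and 61.5 and 64.8 CPM in WT laparotomy, at 0.46 ± 0.10 (edgeR adjusted p = 0.144). Aco1 stood at -0.26 ± 0.10 (edgeR adjusted p = 0.332), Fth1 at 0.37 ± 0.33 (0.656) and Slc40a1 at 0.71 ± 1.13 (0.817). Ftl1 (0.11 ± 0.16), Ncoa4 (0.10 ± 0.12), Ireb2 (-0.08 ± 0.10) and Steap3 (-0.01 ± 0.20) had edgeR adjusted p-values of 0.731 to 0.992. Tfrc had 412 and 339 CPM in KO laparotomy and 671 and 664 CPM in WT laparotomy, at -0.83 ± 0.15 with no test, and the groups did not overlap.

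The wider iron list gave 0 calls by edgeR in both of these comparisons, with 11 of 72 genes at an unadjusted p under 0.05 without surgery, beside 16.3% of all genes, and 5 with laparotomy, beside 13.4%. DESeq2 called 4 of them without surgery, beside 5.68% of all genes, and 2 with laparotomy, beside 4.29%. Without surgery the smallest p-values were those of Slc48a1, at -0.97 ± 0.20 (edgeR adjusted p = 0.107), and Blvrb, at -0.60 ± 0.14 (edgeR adjusted p = 0.135). With laparotomy they were those of Slc25a37, the mitochondrial iron importer mitoferrin, and Blvrb. Slc25a37 had 139 and 131 CPM in KO laparotomy and 221 and 217 CPM in WT laparotomy, at -0.70 ± 0.14 (edgeR adjusted p = 0.114), and Blvrb stood at 0.53 ± 0.14 (edgeR adjusted p = 0.185).

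Tumour libraries were set against control cultures on the scale with TMM factors over all 14 libraries, as a description, since preparation and sorting cannot be told apart from the setting. Ftl1 had 579.6 to 1055 CPM in the 8 tumour libraries and 8726 to 10657 CPM in control cultures, a log2 difference of -3.40, or 10.6-fold lower in tumours; 0.610% of 14421 genes differed as far downward. Fth1 had 722 to 2043 CPM in tumours and 3071 to 3502 CPM in control cultures, at -1.11. Slc11a2 had 54.2 to 85.8 CPM in tumours and 118 to 121 CPM in control cultures, at -0.84. These 3 genes were lower in every tumour library than in every control culture, as were 28.1% of all genes.

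Slc39a14 went the other way, with 108 to 271 CPM in tumours and 48.9 to 55.9 CPM in control cultures, a log2 difference of 1.86, or 3.63-fold higher; it was above control cultures in every tumour library, as were 31% of all genes, and 8.70% of genes had a difference as large. Ireb2 (0.25) and Ncoa4 (0.26) were also higher in every tumour library than in every control culture. So was Slc40a1 (1.37), near the floor, at 0.293 to 5.21 CPM in tumours and 0 to 0.0809 CPM in control cultures. The differences were 0.17 for Aco1, -0.15 for Tfrc and -0.16 for Steap3, with overlapping libraries, and the median of all genes was 0.06. The 8 fibroblast markers, of which 1 was at 0 in every control culture and none throughout any tumour group, summed to 3447 to 11983 CPM in tumours and 133 to 137 CPM in control cultures; their part was not tested.

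The genes whose level followed that of Tfrc most closely over the 8 tumour libraries, by Pearson correlation of log2 CPM among 9222 genes with a mean of at least 10 CPM, were Gbe1 (0.985), Blm (0.985), Ptcd3 (0.985), Eif3a (0.981) and Ddit4 (0.961). Ddit4, for example, had 238 and 228 CPM in KO laparotomy, 190.5 and 186 CPM in KO control, 360.3 and 311 CPM in WT laparotomy and 172 and 198 CPM in WT control. Over the 6 culture libraries the closest of 8843 genes were Tial1 (0.999), Dhx9, Calu, Rsrc2 and Pmpcb (0.998 each). Of 62 genes on the iron list, Abcb8 (0.918), Cisd3 (0.822) and Hmox1 (0.789) were closest in tumours. Among the members, the correlation with Tfrc was -0.951 for Fth1 and -0.947 for Slc39a14 over the 6 culture libraries, and 0.230 for Fth1 and -0.191 for Slc39a14 over the 8 tumour libraries. Libraries of a group share their treatment, so these values describe group differences as much as differences between libraries, and they were not tested.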

How the data were processed

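Deposited values were read counts per gene, 1 table for each of 14 libraries. Per the submitters' processing notes, the authors used Trimmomatic, STAR and build mm10 (GRCm38); of versions, options, annotation and library kit nothing is stated in those notes or the labels. Each table had 3 count columns; the unstranded one was used, after 4 summary lines that name no gene were left out. Tests used edgeR 4.0.16 under R 4.3.3 (filterByExpr, TMM, glmQLFit with robust estimation, glmQLFTest; Benjamini-Hochberg threshold 0.05). The 6 culture libraries and the 8 tumour libraries (4 groups of 2 sharing 1 estimate of the spread) were fitted apart, each leaving 4 residual degrees of freedom. The biological coefficient of variation, common to all genes, was 0.0633 for culture and 0.278 for tumours. Standard errors came from the quasi-likelihood F statistic. Reads carry no molecular identifiers.

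The 10 members, the iron and marker lists and the alternatives were chosen with earlier results of these data known. Named iron genes are, per comparison, the 3 largest rises and the 3 largest falls among called genes with a mean of at least 5 CPM, or the 2 smallest p-values where none was called; the 5 genes and 3 iron genes most like Tfrc were also named. Alternatives were RLE size factors, library totals, no filter on low counts, DESeq2 1.42.0, the larger strand-specific column, the replicate number as a block, the compared groups alone, and leaving out each library. Fold changes of tumour over culture used log2(CPM + 0.5). UTRs and gene positions are from GENCODE vM21.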

Additional observations from a re-analysis of the deposited data

Results flagged for a closer look

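The 10 members, the named iron genes and the genes most like Tfrc were searched for opposite directions, and cell type markers were not. In 9 of the genes searched, both laparotomy libraries lay on one side of their controls in KO hosts and on the opposite side in WT hosts. The difference between hosts was not tested. The KO minus WT difference of the laparotomy effects, on the log2 scale, was 1.62 for Slc39a14, 0.79 for Slc11a2, 0.75 for Fth1 and 0.22 for Ncoa4, where laparotomy libraries were higher in KO hosts and lower in WT hosts, and -0.45 for Aco1, where they were lower in KO hosts and higher in WT hosts. Of the wider iron list, it was 1.12 for Blvrb and 0.36 for Iscu, higher in KO hosts and lower in WT hosts, and -1.12 for Slc25a37, lower in KO hosts and higher in WT hosts. Blvrb had 81.0 and 67.2 CPM in KO laparotomy and 39.8 and 47.6 CPM in KO control, and 49.7 and 53.1 CPM in WT laparotomy and 66.9 and 65.4 CPM in WT control. Slc25a37 had 139 and 131 CPM in KO laparotomy and 217 and 169.9 CPM in KO control, and 221 and 217 CPM in WT laparotomy and 135 and 155 CPM in WT control. Of the genes most like Tfrc in culture, it was -0.32 for Dhx9, lower in KO hosts and higher in WT hosts. The value for Fth1 was 0.27 without KO control replicate 1 and 1.48 without KO control replicate 2. This pattern, both laparotomy libraries on opposite sides of their controls in the 2 hosts, was seen in 5 of the 10 members and in 14.7% of all 14615 genes tested. Blvrb and Slc25a37 were named for small p-values in comparisons of these same tumour libraries. The count of 9 can therefore not be set beside that share.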

How the results depend on the processing

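In culture the 3 calls among the members stayed at 3 or 4 and the 32 calls on the iron list at 23 to 37 under every alternative run. Library totals turned the direction of Ftl1 (-0.049), Slc11a2 (-0.146), Ireb2 (-0.060) and Ncoa4 (-0.050) in culture, none of which passed. Aco1 in culture turned to 0.00066 with RLE size factors, 0.00031 with DESeq2 and 0.00081 with the strand-specific column, and Slc11a2 to -0.0018 without a filter. Leaving out 1 library put Slc11a2 in culture between -0.016 and 0.026 and Aco1 between -0.050 and 0.018.

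For laparotomy in KO hosts the count of 1 member became 2 without a filter, 4 with DESeq2, 0 with the replicate block, 0 with the compared groups alone and 0 to 2 when 1 library was left out. The iron count of 0 became 2 without a filter, 10 with DESeq2 and 0 to 2 when 1 library was left out. For KO against WT hosts without surgery the count of 0 became 1 without a filter, 2 with DESeq2 and 0 to 2 when 1 library was left out; with laparotomy it became 2 with DESeq2 and 1 with the compared groups alone. The causes were not tested. In the replicate block Slc11a2 in KO hosts had an adjusted p of 0.0932, and the block changed no other count of calls by over 1.5 times. Same-numbered culture libraries deviated from their group means with correlations of 0.09, 0.09 and -0.03. Same-numbered tumour libraries did so with -0.12 (KO laparotomy and KO control) to 0.36 (KO control and WT control). The 2 tumour libraries of a group deviate as mirror images, so these values cannot decide whether the numbers pair the samples. Exchanging the numbers of the KO laparotomy libraries, chosen after seeing the data, gave 1 call.

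Leaving out 1 library in KO hosts with laparotomy put Slc40a1 between -0.18 and 1.93, Ireb2 between -0.027 and 0.136 and Steap3 between -0.55 and 0.016. For KO against WT hosts without surgery it put Fth1 between -1.11 and 0.10, Slc40a1 between -3.31 and 0.21 and Steap3 between -0.065 and 0.50, and with laparotomy Slc40a1 between -0.60 and 1.37 and Steap3 between -0.164 and 0.125. Steap3 there was 0.00384 with RLE size factors, 0.00380 with DESeq2 and 0.00742 with the compared groups alone. Of 819 values of single genes, 25 changed direction, 18 came to pass and 8 no longer passed, all counted in tested comparisons only. Untested comparisons were not scored for direction, and 18 of their values moved by at least the spread within groups. Leaving out 1 library also crossed 0 there. With laparotomy in WT hosts Slc40a1 went from -2.05 to 0.65, Steap3 from -0.04 to 0.14 and Ftl1 from -0.10 to 0.005. The KO minus WT difference went from -0.25 to 0.05 for Steap3 and from -0.01 to 0.05 for Ireb2. The tumour groups of 2, a lone library being assumed to vary like the others, and the 0 to 163 reads of Slc40a1 limit precision.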
